A study of Arabidopsis thaliana with 8 samples.

Results

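The genes described here are the Aux/IAA and ARF families of *Arabidopsis thaliana*, the transcriptional repressors and the DNA-binding factors of the auxin response. They were chosen by locus identifier, 24 Aux/IAA and 15 ARF genes, which is 39 of the 27444 protein-coding genes annotated on chromosomes 1 to 5. All 39 loci were found in the annotation. R-loops were mapped in 10-day-old seedlings by DRIP-seq, in which the S9.6 antibody pulls down DNA:RNA hybrids and the DNA recovered is sequenced. The 2 genotypes were *ndx1-4*, a T-DNA insertion mutant of the homeobox gene NDX, and the wild type Col-0. For each genotype an input library, 2 libraries of S9.6 immunoprecipitates (IP) and an RNase H-treated control were sequenced, RNase H being an enzyme that digests the RNA of such hybrids. The data were 1 peak list per genotype, with 13549 peaks in *ndx1-4* and 14180 peaks in Col-0. A list of peaks does not report the NDX transcript or marker transcripts, so the genotype and tissue labels were not checked against the data.

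Auxin acts by removing repressors. Aux/IAA proteins bind ARF proteins on auxin-responsive promoters and recruit TOPLESS co-repressors, and auxin joins each Aux/IAA protein to an F-box receptor of the TIR1/AFB family through a short motif of the repressor, the degron, after which the repressor is ubiquitinated and degraded. ARF proteins recognise the auxin response element TGTCTC. The group of ARF5, ARF6, ARF7, ARF8 and ARF19 is known for activating transcription, and most other ARF proteins are known as repressors. Many Aux/IAA genes are themselves induced by auxin, which closes a feedback loop.

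A gene was counted with a peak where a peak shared at least 1 base with its annotated body or the 500 bases on each side, called its window. Distances below run along the strand of the gene from its annotated start, with 0 as the first transcribed base and negative values upstream. Each list is 1 sample without a replicate, the depth behind it is unknown, and differences between the lists describe these lists only. The score is a whole number given with each peak, and its percentile is its rank among all peaks of the same list.

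Among the bases that the results turn on were the stretches just upstream of the gene start that lay under a peak. They are shown for 6 genes, picked after their values were seen and including the genes with the lowest and the highest purine share, from the RefSeq copy of the TAIR10 reference, in lower case with the longest run of purines on the coding strand in capitals. Purine-rich RNA is known to form stable hybrids with DNA. These bases lie ahead of the first annotated transcribed base, and whether RNA is made from them was not examined. The stretches are ARF7, chr5:7022180-7022400, minus strand; ARF11, chr2:19104461-19104631, plus strand; ARF17, chr1:29271941-29272073, plus strand; ARF18, chr3:22887721-22887888, plus strand; IAA11, chr4:14141941-14142062, plus strand; and the 300 bases next to the start of IAA12, chr1:1239994-1240293, plus strand.
ARF7: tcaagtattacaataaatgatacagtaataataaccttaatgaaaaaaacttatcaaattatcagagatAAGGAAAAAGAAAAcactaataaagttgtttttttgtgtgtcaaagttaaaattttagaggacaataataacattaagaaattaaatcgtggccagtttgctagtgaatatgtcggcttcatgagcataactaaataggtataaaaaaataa
ARF11: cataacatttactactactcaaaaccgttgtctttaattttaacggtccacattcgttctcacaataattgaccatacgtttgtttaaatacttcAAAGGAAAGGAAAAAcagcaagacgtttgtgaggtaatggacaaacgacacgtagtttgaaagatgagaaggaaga
ARF17: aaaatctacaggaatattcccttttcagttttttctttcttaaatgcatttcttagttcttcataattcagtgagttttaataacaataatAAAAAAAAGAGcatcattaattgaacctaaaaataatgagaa
ARF18: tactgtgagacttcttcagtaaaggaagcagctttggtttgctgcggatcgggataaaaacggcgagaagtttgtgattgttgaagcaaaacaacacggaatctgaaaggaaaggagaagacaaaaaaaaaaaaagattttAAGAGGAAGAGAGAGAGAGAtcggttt
IAA11: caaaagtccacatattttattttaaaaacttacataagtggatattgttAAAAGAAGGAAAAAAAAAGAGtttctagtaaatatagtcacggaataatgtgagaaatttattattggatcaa
IAA12: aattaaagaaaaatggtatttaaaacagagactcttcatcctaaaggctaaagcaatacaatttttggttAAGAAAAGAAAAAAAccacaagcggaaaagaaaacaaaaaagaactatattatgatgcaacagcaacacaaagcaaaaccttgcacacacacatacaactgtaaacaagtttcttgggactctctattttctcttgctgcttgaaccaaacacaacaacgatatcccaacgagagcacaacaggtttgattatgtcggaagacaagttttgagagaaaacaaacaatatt
The ARF17 stretch lay under an *ndx1-4* peak and the others are those of Col-0 peaks. The IAA11 peak was found in Col-0 only, at percentile 7.38. The longest purine run was 11 bases upstream of ARF17, 14 bases at ARF7, 15 bases at ARF11 and IAA12, 20 bases at ARF18 and 21 bases at IAA11. Purines made up 68.5% of the ARF18 stretch, 60.7% of the IAA11 stretch, 60.6% of the ARF7 stretch, 59.3% of the IAA12 stretch, 55.6% of the ARF11 stretch and 49.6% of the ARF17 stretch. Of the whole peaks they made up 47.8% at ARF18, 59.1% at IAA11 and 62.8% at ARF7. The whole-peak shares were 52.5% at IAA12, 50.7% at ARF11 and 58.6% at ARF17. Over all member stretches of at least 100 bases under a peak within the 300 bases upstream, the median purine share was 59.3% in *ndx1-4* (7 genes, 49.6 to 68.5%) and 59.3% in Col-0 (9 genes, 48.7 to 68.5%), against a median of 51.5% over all protein-coding genes in *ndx1-4* (25.7 to 76.2%) and 51.7% in Col-0 (25 to 76.2%). The longest run in these member stretches had a median of 15 bases in both lists (7 to 20 in *ndx1-4*, 7 to 21 in Col-0). Over all protein-coding genes the median was 10 bases in both lists (3 to 72). The shortest member runs, 7 bases at ARF9 in both lists and 8 bases at ARF4 in Col-0, are not among the stretches shown. The differences between members and all genes were not tested.

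Peaks were found on many genes of both families, and in different places within the gene. The Aux/IAA genes had 12 of 24 members with a peak (50%) in *ndx1-4* and 13 of 24 (54.2%) in Col-0. The ARF genes had 8 of 15 (53.3%) in *ndx1-4* and 11 of 15 (73.3%) in Col-0. For the 39 genes together the count was 20 (51.3%) in *ndx1-4* and 24 (61.5%) in Col-0, against 36% of all protein-coding genes in *ndx1-4* and 37.6% in Col-0.

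Longer genes hold peaks more often, and the families differ in length, so the counts were also read against genes of like length. The median body was 1885 bases (986 to 3137) for Aux/IAA genes and 4530 bases (3069 to 5735) for ARF genes, and 2078 bases over all protein-coding genes. Among Aux/IAA genes with a body under 2000 bases, 6 of 14 in *ndx1-4* and 7 of 14 in Col-0 had a peak, against 27.3% of all genes of that length in *ndx1-4* and 28.6% in Col-0. Among Aux/IAA genes of 2000 to under 3000 bases it was 4 of 8 in both lists, against 38.7% in *ndx1-4* and 40.4% in Col-0. The longest Aux/IAA genes, IAA9 and IAA13, had a peak in both lists. All 15 ARF genes were 3000 bases or longer, a class in which 49.2% of genes in *ndx1-4* and 51.4% in Col-0 had a peak, so the ARF share in *ndx1-4* was close to its length class and the ARF share in Col-0 above it. The Col-0 share rests on few genes and was not tested. It includes ARF5 and ARF16, whose only peaks had 200 bases and scores at percentile 6.21 or lower.

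Counted per length, peaks were denser on the Aux/IAA genes. The Aux/IAA windows held 17 peaks in *ndx1-4* and 20 in Col-0, which is 0.24 peaks per kb of window in *ndx1-4* and 0.282 in Col-0. The ARF windows held 9 peaks in *ndx1-4* and 13 in Col-0, which is 0.111 peaks per kb in *ndx1-4* and 0.16 in Col-0. Over all protein-coding genes the density was 0.123 per kb in *ndx1-4* and 0.129 per kb in Col-0. The Aux/IAA to ARF ratio of densities was 2.16 in *ndx1-4* (95% Wilson interval of the share of peaks turned into a ratio, 0.983 to 4.75) and 1.76 in Col-0 (0.887 to 3.49). The intervals cover counting error only, take the peaks of 1 gene as independent, and both contained 1. Length class alone gave a small gap: all genes with bodies under 2000 bases had 0.138 peaks per kb in *ndx1-4* and 0.144 in Col-0, and all genes of 3000 bases and over had 0.117 in *ndx1-4* and 0.124 in Col-0. By bases, peaks covered 10.4% of the Aux/IAA windows in *ndx1-4* and 10.8% in Col-0. They covered 4.46% of the ARF windows in *ndx1-4* and 6.75% in Col-0, against 4.66% over all genes in *ndx1-4* and 5.03% in Col-0.

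The Aux/IAA peaks were spread along the gene and most ARF peaks lay at its start. In *ndx1-4*, 6 of 17 Aux/IAA peaks (35.3%, 95% Wilson interval 17.3 to 58.7%) had their centre within 500 bases of the gene start, against 8 of 9 ARF peaks (88.9%, 56.5 to 98%). In Col-0 it was 9 of 20 Aux/IAA peaks (45%, 25.8 to 65.8%) and 11 of 13 ARF peaks (84.6%, 57.8 to 95.7%). Over all protein-coding genes the share was 42.9% in *ndx1-4* and 42.4% in Col-0, and over genes as long as the ARF genes it was 37.7% in *ndx1-4* and 36.9% in Col-0. The Aux/IAA shares were thus near those of genes at large, and the ARF shares stood above both. The only ARF peaks centred elsewhere were a peak near the 3' end of ARF9 in both lists and, in Col-0, the second peak of ARF5, whose centre lay just past the limit at 551 bases. Some Aux/IAA centres also lay just past it, at 549 bases in IAA18 in both lists and 522 bases in IAA9 in *ndx1-4*. In IAA26 the centre lay at 532 bases in *ndx1-4* and 542 bases in Col-0. The Aux/IAA shares, and their gap to the ARF shares, thus depend on the limit, and no other limit was tried.

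**Figure D1:**
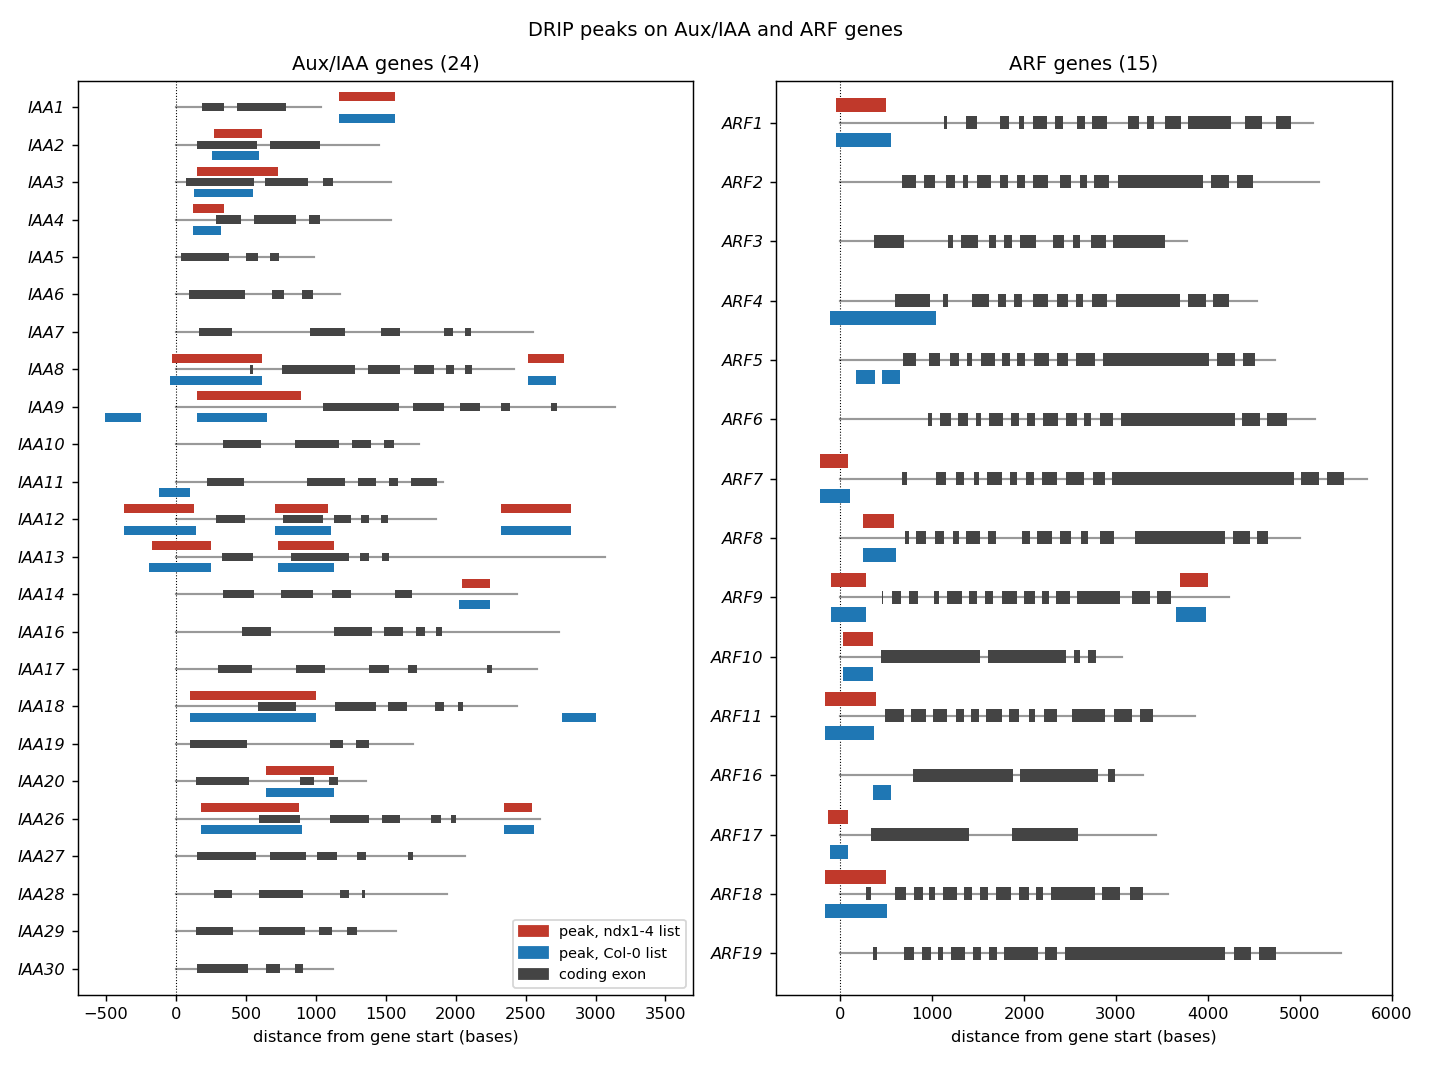
Map of the 24 Aux/IAA genes (left) and 15 ARF genes (right), each aligned at its annotated start, with distance from the gene start in bases on the x axis. Grey lines are gene bodies, dark boxes coding exons of the transcript with the longest coding sequence, red bars peaks of the ndx1-4 list and blue bars peaks of the Col-0 list. Aux/IAA peaks lie at the gene start, over coding exons and past the gene end, ARF peaks gather at the gene start, and IAA11, ARF4, ARF5 and ARF16 carry blue bars only.

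Split by zone, the first 500 transcribed bases were the most covered in both families. There, peaks covered 22.8% of Aux/IAA bases in *ndx1-4* and 23.9% in Col-0, and 31.9% of ARF bases in *ndx1-4* and 44% in Col-0, against 9.81% over all genes in *ndx1-4* and 10.4% in Col-0. In the middle of the body, between the first and the last 500 bases, the families parted. Peaks covered 11.9% of that zone in Aux/IAA genes in *ndx1-4* and 10.1% in Col-0, and 0.229% in ARF genes in *ndx1-4* and 1.94% in Col-0, against 3.12% over all genes in *ndx1-4* and 3.47% in Col-0. The zone held 22984 bases in the 24 Aux/IAA genes and 51186 bases in the 15 ARF genes. From 1200 to 1999 bases from the gene start, coverage was 0% in both families and both lists. The values were not matched for gene length, and the part of the contrast that goes with length was not separated. In the 500 bases downstream of the gene end, peaks covered 5.58% of Aux/IAA bases in *ndx1-4* and 6.57% in Col-0, and no ARF base in either list. Along the gene in steps of 100 bases, Aux/IAA coverage was highest at 200 to 299 bases, at 28.1% in *ndx1-4* and 28.9% in Col-0, and was still 24% in *ndx1-4* and 20.8% in Col-0 at 800 to 899 bases. ARF coverage was highest in the first 100 bases, at 42.3% in *ndx1-4* and 50.3% in Col-0.

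**Figure D2:**
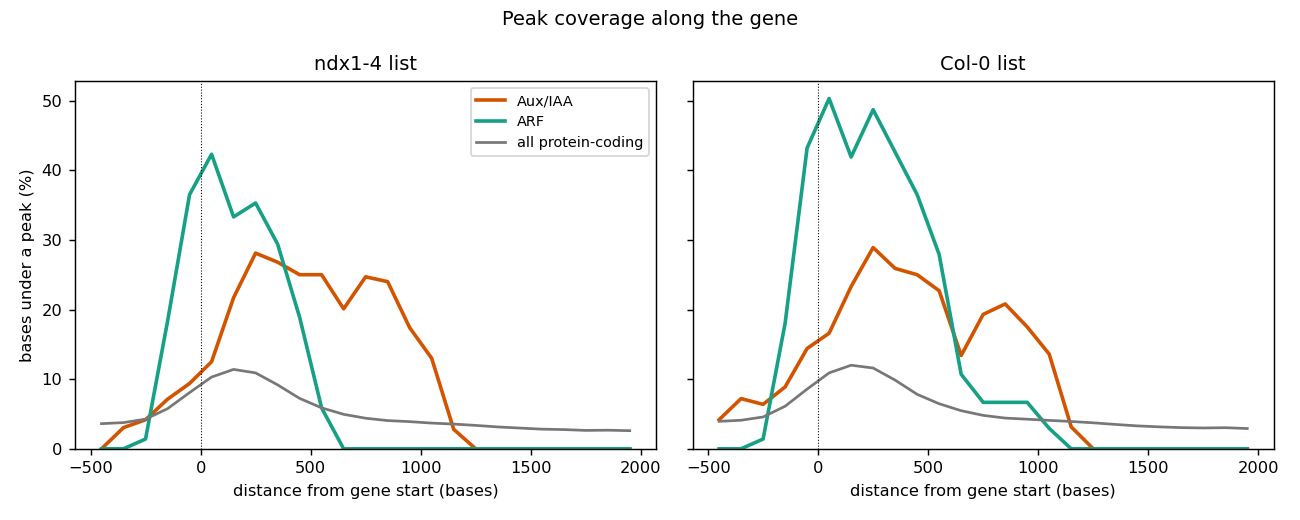
Share of bases under a peak (%, y axis) in bins of 100 bases by distance from the gene start (x axis), for Aux/IAA genes, ARF genes and all protein-coding genes, in the ndx1-4 list (left) and the Col-0 list (right). Each bin uses the genes that reach it. The Aux/IAA line stays above the line of all genes from the gene start to 1099 bases, and the ARF line is highest at the gene start and falls to 0 in ndx1-4 by 600 bases.

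In terms of the gene model, most ARF peaks were centred in the 5' untranslated region, here the exon bases ahead of the start codon, with introns counted apart. Its share of the gene body was alike in both families, 13.5% for Aux/IAA and 11.2% for ARF genes. The start codon lay at a median of 250 bases (37 to 1055) in Aux/IAA genes and 597 bases (282 to 1125) in ARF genes. Of Aux/IAA peaks, 4 of 17 in *ndx1-4* and 6 of 20 in Col-0 were centred in the 5' untranslated region, and 4 in each list in coding sequence, which made up 36.9% of Aux/IAA bodies. Of ARF peaks, 6 of 9 in *ndx1-4* and 9 of 13 in Col-0 were centred in the 5' untranslated region, and none in coding sequence in either list, although coding sequence made up 52.9% of ARF bodies. Over all protein-coding genes 18.6% of peaks were centred in the 5' untranslated region in either list. A few further peaks were centred in an intron ahead of the start codon. In *ndx1-4* these were IAA8 (centre at 294 bases, start codon at 531) and IAA9 (522 and 1055), and in Col-0 ARF16 (453 and 790). In Col-0 the IAA8 and IAA9 centres, at 284 and 402 bases, fell in the 5' untranslated region, so the Aux/IAA counts of the lists differ partly by an intron edge. No coding base lay under 8 of 17 Aux/IAA peaks in *ndx1-4* and 11 of 20 in Col-0, or under 7 of 9 ARF peaks in *ndx1-4* and 10 of 13 in Col-0.

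Among the Aux/IAA genes, IAA12 carried the most peaks, and those of IAA13 were placed in a like manner. IAA12 (AT1G04550), known as BODENLOS, is the partner of ARF5 in setting up the embryonic root, and IAA13 (AT2G33310) is its closest relative. IAA12 had 3 peaks in both lists, at -373 to 126, 707 to 1086 and 2327 to 2826 bases in *ndx1-4* (lengths 500, 380 and 500 bases, scores 102, 104 and 158, percentiles 60.6, 62.7 and 91.1) and at -373 to 146, 707 to 1106 and 2327 to 2826 bases in Col-0 (lengths 520, 400 and 500 bases, scores 100, 103 and 170, percentiles 55.1, 58 and 90.6). The third lay past the end of the gene and overlapped the annotated locus AT1G04555, so it cannot be assigned to IAA12 alone. IAA13 had a peak across its start at -171 to 248 bases in *ndx1-4* (420 bases, score 211, percentile 97.4) and -191 to 248 bases in Col-0 (440 bases, score 218, percentile 96.4). It had another at 729 to 1128 bases in both lists (400 bases, with a score of 92 and percentile 48.9 in *ndx1-4* and a score of 106 and percentile 61.1 in Col-0). Both genes thus had 1 peak over the gene start and 1 inside the body at nearly the same distance, and the peak at the start of IAA13 was the highest-scoring Aux/IAA peak in each list.

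The codons of the degron lay outside the peaks in most Aux/IAA genes, and the inner peaks of IAA12 and IAA13 covered them. The codons for its core, Gly-Trp-Pro-Pro, were found in 22 of the 24 Aux/IAA genes and not in IAA20 and IAA30, proteins known for lacking it. They lay under a peak in 3 genes in *ndx1-4*, IAA3, IAA12 and IAA13, and in 2 genes in Col-0, IAA12 and IAA13. The cores of the 22 genes began between 202 bases (IAA5) and 1705 bases (IAA9) from the gene start. Aux/IAA coverage over that range reached 28.1% of bases in *ndx1-4* and 28.9% in Col-0 at 200 to 299 bases. It was 0% in both lists at 1200 to 1299 bases. The cores of IAA3, IAA12 and IAA13 lay at 600 to 899 bases. Coverage there was 20.1 to 24.7% in *ndx1-4* and 13.4 to 20.8% in Col-0. The counts were not tested against this coverage. The coding-strand sequences of these 3 genes are shown with the 4 core codons in capitals, at chr1:1129019-1129048 (IAA3, minus strand), chr1:1241058-1241087 (IAA12, plus strand) and chr2:14115233-14115262 (IAA13, minus strand).
IAA3: cagattgttGGATGGCCACCAgttagatct
IAA12: caagtggtaGGATGGCCACCAattgggtta
IAA13: caagttgttGGATGGCCTCCTatagggtca
The core began 650 bases from the start of IAA3, 773 bases from that of IAA12 and 836 bases from that of IAA13.

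The clade of IAA1 to IAA4, short auxin-induced genes, had a peak at each of its 4 members in both lists. The grouping into clades follows known family relations and was applied after the peaks had been seen. IAA3 (AT1G04240), known as SHY2 and as a repressor at the root transition zone, had its peak at 149 to 728 bases in *ndx1-4* (580 bases) and 129 to 548 bases in Col-0 (420 bases). IAA2 had it at 275 to 614 bases in *ndx1-4* and 255 to 594 bases in Col-0, and IAA4 at 122 to 341 bases in *ndx1-4* and 122 to 321 bases in Col-0. The transcript with the longest coding sequence was used. In it these peaks lay mostly inside the first coding exon in IAA2 and IAA3 and across the start codon in IAA4. IAA2 and IAA3 each have 2 annotated transcripts, and the start codon of the other one was not placed. At IAA1 the peak lay at 1165 to 1564 bases in both lists (chr4:8362161-8362560, 400 bases, with a score of 142 and percentile 86.2 in *ndx1-4* and a score of 127 and percentile 76.3 in Col-0), past the gene end and over the body of the neighbouring gene AARE. IAA1 was the only member whose peaks lay in the flank alone.

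Long peaks ahead of or across the start codon marked IAA8, IAA9, IAA18 and IAA26. IAA8 had a peak at -25 to 614 bases in *ndx1-4* (640 bases, score 152, percentile 89.5) and -45 to 614 bases in Col-0 (660 bases, score 156, percentile 87.5). A smaller one lay past its end at 2515 to 2774 bases in *ndx1-4* (260 bases, score 77, percentile 25.7) and 2515 to 2714 bases in Col-0 (200 bases, score 83, percentile 32.5). IAA9 (AT5G65670), its close relative with its start codon at 1055 bases, had a peak at 153 to 892 bases in *ndx1-4* (740 bases, score 104, percentile 62.7) and 153 to 652 bases in Col-0 (500 bases, score 104, percentile 59.1). Both IAA8 and IAA9 thus had a long peak that was almost wholly noncoding. IAA27, of the same clade, had none in either list, and the peak nearest to its body was 11836 bases away in *ndx1-4* and 2096 bases away in Col-0.

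IAA18 carried the longest Aux/IAA peak of both lists. It lay at 100 to 999 bases in both (900 bases, with a score of 103 and percentile 61.7 in *ndx1-4* and a score of 103 and percentile 58 in Col-0), running across its start codon at 589 bases. IAA26, its close relative, also known as phytochrome-associated protein PAP1, had 1 at 183 to 882 bases in *ndx1-4* (700 bases, score 111, percentile 69) and 183 to 902 bases in Col-0 (720 bases, score 124, percentile 74.6), running across its start codon at 595 bases. In IAA26 a second peak lay in the last 500 bases, at 2343 to 2542 bases in *ndx1-4* (200 bases, score 83, percentile 35.7) and 2343 to 2562 bases in Col-0 (220 bases, score 104, percentile 59.1). IAA28, of the same clade and known for lateral root founder cells, had no peak in either list.

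The remaining Aux/IAA genes had few peaks. IAA14 (AT4G14550), known as SOLITARY-ROOT and required to be degraded for lateral root initiation, had a short peak toward its 3' end at 2043 to 2242 bases in *ndx1-4* and 2023 to 2242 bases in Col-0. IAA7, IAA16 and IAA17, its close relatives, had none in either list. IAA20 had a peak at 647 to 1126 bases in both lists. No peak was found in either list at IAA5, IAA6 and IAA19, an auxin-induced clade of hypocotyl growth, or at IAA10, IAA29 and IAA30. With IAA7, IAA16, IAA17, IAA27 and IAA28 this makes 11 of the 24 genes without a peak in either list. For these 11 genes the peak nearest to the body was 801 (IAA28) to 14510 bases (IAA16) away in *ndx1-4*, and 821 to 14510 bases away, at the same genes, in Col-0.

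Among the ARF genes, those of the clade of ARF1, ARF2, ARF9, ARF11 and ARF18 carried a peak across the gene start in all but ARF2. ARF18 had it at -168 to 491 bases in *ndx1-4* (660 bases, score 122, percentile 76.8) and -168 to 511 bases in Col-0 (680 bases, score 130, percentile 77.8). ARF11 had it at -171 to 388 bases in *ndx1-4* and -171 to 368 bases in Col-0, and ARF1 at -48 to 491 bases in *ndx1-4* and -48 to 551 bases in Col-0. For ARF2, a known repressor of cell division, the nearest peak was 1471 bases from the body in *ndx1-4* and 1391 bases in Col-0. ARF9 had it at -102 to 277 bases in both lists (380 bases, with a score of 92 and percentile 48.9 in *ndx1-4* and a score of 96 and percentile 50.4 in Col-0). ARF9 had a further peak near its 3' end at 3698 to 3997 bases in *ndx1-4* (300 bases, score 77, percentile 25.7) and 3658 to 3977 bases in Col-0 (320 bases, score 81, percentile 29.6).

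The activating ARF genes gave a mixed picture. ARF7 (AT5G20730), known as NPH4 and for phototropism and lateral roots, had a peak across its start at -221 to 78 bases in *ndx1-4* and -221 to 98 bases in Col-0. ARF8, which acts in flower and hypocotyl growth, had a peak at 248 to 587 bases in *ndx1-4* and 248 to 607 bases in Col-0, ahead of its start codon at 698 bases. Their close relatives ARF19 and ARF6 had no peak in either list, with the nearest peak 4648 bases from ARF19 in both lists and, for ARF6, 5182 bases away in *ndx1-4* and 3362 bases away in Col-0. ARF10 and ARF17, targets of miR160, had a peak at the start in both lists. That of ARF10 lay at 32 to 351 bases in both (320 bases, with a score of 144 and percentile 86.9 in *ndx1-4* and a score of 141 and percentile 82.6 in Col-0), and that of ARF17 at -133 to 86 bases in *ndx1-4* and -113 to 86 bases in Col-0.

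In 4 members a peak was found in Col-0 and none in *ndx1-4*: IAA11, ARF4, ARF5 and ARF16. No member had a peak in *ndx1-4* only. Of all protein-coding genes, 3.63% had a peak in the Col-0 list only and 1.96% in the *ndx1-4* list only. By peaks, 0 of 26 member peaks in *ndx1-4* and 7 of 33 in Col-0 (21.2%) shared no base with a peak of the other list, against 7.44% of all *ndx1-4* peaks and 11.9% of all Col-0 peaks. Of those 7, 3 belonged to Aux/IAA genes and 4 to ARF genes.

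The largest of these was at ARF4 (AT5G60450), a repressor targeted by tasiRNAs from TAS3 and acting with ARF3 in leaf polarity. The nearest *ndx1-4* peak was 1641 bases away from its Col-0 peak. In Col-0 the ARF4 peak ran from -116 to 1043 bases (chr5:24311741-24312900), across the start codon at 597 bases, with a length of 1160 bases and a score of 324 at percentile 99.3. It was the longest and highest-scoring member peak of either list. A missing partner was not rare among peaks of this kind: of the 102 Col-0 peaks that scored at least as high, 47 (46.1%) had no partner in *ndx1-4*, and of the 158 that were at least as long, 40 (25.3%) had none. ARF3, known as ETTIN, had no peak in either list, with the nearest 1783 bases from its body in *ndx1-4* and 1763 bases in Col-0.

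The other 6 were short and low in score. ARF5 (AT1G19850), known as MONOPTEROS and required for the embryonic root and vascular tissue, had no peak in *ndx1-4*. In Col-0 it had 1 at 172 to 371 bases (chr1:6886841-6887040, 200 bases, score 65, percentile 6.21) and 1 at 452 to 651 bases (chr1:6887121-6887320, 200 bases, score 58, percentile 0.889), both ahead of its start codon at 684 bases. ARF16 (AT4G30080), the close relative of ARF10, had none in *ndx1-4* and 1 in Col-0 at 354 to 553 bases (chr4:14705801-14706000, 200 bases, score 65, percentile 6.21). A length of 200 bases was the shortest in either list. IAA11 (AT4G28640) had none in *ndx1-4* and 1 in Col-0 at -122 to 97 bases (chr4:14141941-14142160, 220 bases, score 66, percentile 7.38). Beside peaks found in both lists, Col-0 had a further peak upstream of IAA9 at -507 to -248 bases (260 bases, score 64, percentile 5.11) and 1 past the end of IAA18 at 2760 to 2999 bases (240 bases, score 63, percentile 4.12). All 6 thus scored between 58 and 66, at percentile 7.38 or lower, and the smallest score in either list was 53.

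Where both lists had the peak, its extent was nearly equal. Among the 26 member pairs, 6 had the longer peak in *ndx1-4*, 12 had it in Col-0 and 8 were equal in length, of which 7 had identical edges. Over all paired peaks the shares were 28.6% longer in *ndx1-4*, 42.4% longer in Col-0 and 29% equal. The difference in length, *ndx1-4* minus Col-0, ran from -60 to 240 bases with a median of 0 bases. The largest were 240 bases at IAA9 and 160 bases at IAA3, where the *ndx1-4* peak reached further into the gene. At IAA3 the degron codons lay within the added stretch of the *ndx1-4* peak.

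**Figure D3:**
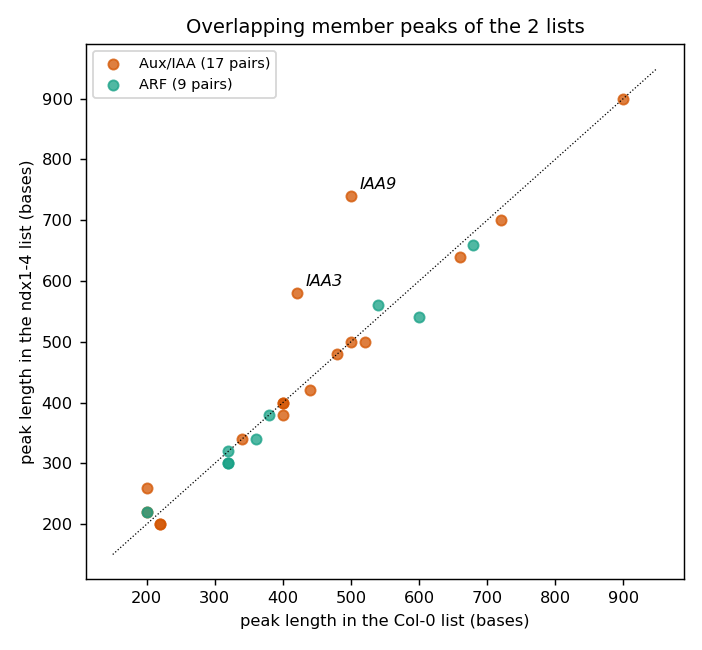
Length in bases of each member peak in the ndx1-4 list (y axis) against its overlapping peak in the Col-0 list (x axis), 1 point per pair, 17 Aux/IAA and 9 ARF pairs. The dotted line marks equal length. Most points lie on or near it, and IAA9 and IAA3 lie above it by 240 and 160 bases.

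The auxin response element was searched upstream of each gene. The motif TGTCTC, on either strand in the 500 bases upstream of the gene start, was found in 9 of 24 Aux/IAA genes (37.5%, 13 sites) and 3 of 15 ARF genes (20%, 4 sites), against 21.3% of all protein-coding genes. IAA3 and IAA19 had 3 sites each and ARF1 had 2. None of the 17 sites lay under a peak in either list. Over all genes 495 of 6792 sites lay under a peak in *ndx1-4* and 531 of 6792 in Col-0. Peaks covered 4.74% of the 500 upstream bases of Aux/IAA genes in *ndx1-4* and 8.2% in Col-0. For ARF genes it was 11.2% in *ndx1-4* and 12.5% in Col-0. With so few sites, a lack of peaks particular to them cannot be told from the low coverage around them. The match of 6 letters is a description of the sequence and says nothing of binding.

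The miR160 and miR167 target sites of the ARF genes were also outside the peaks. The sites of the TAS3 tasiRNAs in ARF2, ARF3 and ARF4 were not searched. ARF10, ARF16 and ARF17 are known targets of miR160, and ARF6 and ARF8 of miR167. The mature miRNAs from the RefSeq annotation, with the seed (bases 2 to 8) in capitals, are followed by their sites on the coding strand, where capitals mark the positions that differ from the perfect complement.
ath-miR160a-5p: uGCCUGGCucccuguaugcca
ARF10: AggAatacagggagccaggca
ARF16: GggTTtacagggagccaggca
ARF17: tggcatGcagggagccaggca
ath-miR167a-5p: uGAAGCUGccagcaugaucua
ARF6: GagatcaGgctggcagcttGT
ARF8: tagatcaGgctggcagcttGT
The sites lay in coding sequence at 1852 bases from the gene start in ARF10 (chr2:12115741-12115761, plus strand), 2193 bases in ARF16 (chr4:14704141-14704161, minus strand), 2115 bases in ARF17 (chr1:29274189-29274209, plus strand), 4490 bases in ARF6 (chr1:10686478-10686498, minus strand) and 4388 bases in ARF8 (chr5:14633841-14633861, plus strand). None was under a peak. For ARF6 in both lists and ARF16 in *ndx1-4* this could not be otherwise, since the gene had no peak. All of the sites lay in the middle of the body, where peaks covered 0.229% of ARF bases in *ndx1-4* and 1.94% in Col-0. With so little of that zone covered, a lack of peaks particular to the sites cannot be told from the low coverage around them. The distance from site to the gene's own peak was 1501 bases in ARF10 and 2029 bases in ARF17 in both lists, 3801 bases in *ndx1-4* and 3781 bases in Col-0 in ARF8, and 1640 bases in ARF16 in Col-0.

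The member peaks did not stand out in base composition. Their median GC content was 35.3% in *ndx1-4* and 34.8% in Col-0, against 35.4% at the peaks of all protein-coding genes in *ndx1-4* and 35.5% in Col-0. The median purine share on the coding strand was 50.2% in *ndx1-4* and 50.6% in Col-0, against 48.3% over all genes in *ndx1-4* and 48.4% in Col-0. Single peaks ranged widely: purines made up 64.3% of the ARF7 peak in *ndx1-4* and 62.8% in Col-0, and 32.2% of the ARF10 peak in both lists. At most 2.89% of the 31-base words of a member peak occurred elsewhere in the genome.

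Peaks at the other 71 genes of the pathway were counted in the same way, with 36 genes having a peak in *ndx1-4* and 40 in Col-0. Without the small RNA genes it was 31 of 63 protein-coding genes (49.2%) in *ndx1-4* and 35 of 63 (55.6%) in Col-0, against the 36% of all protein-coding genes in *ndx1-4* and 37.6% in Col-0 given above, with no account taken of gene length. Among the remaining family members, 1 of 5 Aux/IAA genes in *ndx1-4* and 2 of 5 in Col-0 had a peak. IAA31 had it in both lists and IAA15 in Col-0 only (200 bases, score 87). Of the other 8 ARF genes, 4 in *ndx1-4* (ARF12, ARF14, ARF15 and ARF20) and 6 in Col-0 had a peak. ARF21 (score 205) and ARF22 (score 426) had it in Col-0 only. All these peaks were centred within 500 bases of the gene start, in an intron or in coding sequence and with no base in the 5' untranslated region, and 28.9 to 55.5% of their 31-base words recurred in the genome. Reads from the recurring words cannot be placed with certainty, and the values of these single genes are uncertain.

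The receptors had a peak in 5 of 6 genes in *ndx1-4* and 4 of 6 in Col-0. The only peak of AFB1 lay wholly past the gene end in both lists, over AT4G03180 and AT4G04445. AFB3 was the 1 gene of the pathway list with a peak in *ndx1-4* only, at -22 to 197 bases (220 bases, score 76, percentile 24). TIR1 and AFB5 had 2 peaks each in both lists, 1 of those at TIR1 also over AT3G62970. Co-repressor genes had a peak in 3 of 5 in both lists, with 2 peaks at TPR3, 1 of them past its end over AT5G27020. Of the ubiquitin ligase core 1 of 5, AXR1, had 1 in both lists.

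Auxin supply genes were similar in both lists. Of biosynthesis genes, 5 of 14 in *ndx1-4* and 6 of 14 in Col-0 had a peak, with 2 peaks at YUC4 and YUC6 in both lists and YUC8 in Col-0 only (score 74). The only peaks of TAA1 and YUC5 lay wholly past the gene end, that of TAA1 over AT1G09855. Of transport genes, 8 of 12 in *ndx1-4* and 9 of 12 in Col-0 had a peak. PIN7 had 2 in both lists, PIN8 had 2 in *ndx1-4* and 3 in Col-0, PIN3 had 2 in *ndx1-4* and 1 in Col-0, and PIN6 had 1 in Col-0 only (score 70). In both lists 1 peak of PIN8 lay past its end, over VDAC3. The influx carriers AUX1, LAX1, LAX2 and LAX3 each had 1 in both lists. Conjugation genes of the GH3 family had a peak in 4 of 8 in both lists, with a second peak at GH3.6 in Col-0 only (score 69).

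The genes of small RNAs that act on ARF transcripts had a peak in 5 of 8 in both lists, and such genes are outside the protein-coding background. The peak in the window of MIR160A was among the highest-scoring, with 1080 bases, a score of 323 and percentile 99.7 in *ndx1-4* and 1100 bases, a score of 320 and percentile 99.3 in Col-0. It lay wholly upstream of the gene, at -1298 to -219 bases in *ndx1-4* and -1298 to -199 bases in Col-0, and overlapped the noncoding locus AT2G09010. The peak of MIR167B overlapped the gene OTP86 in both lists. TAS3 had a peak at 650 to 1089 bases in *ndx1-4* and 650 to 1269 bases in Col-0, while its targets ARF2 and ARF3 had none in either list and ARF4 had the Col-0 peak described above.

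**Figure D4:**
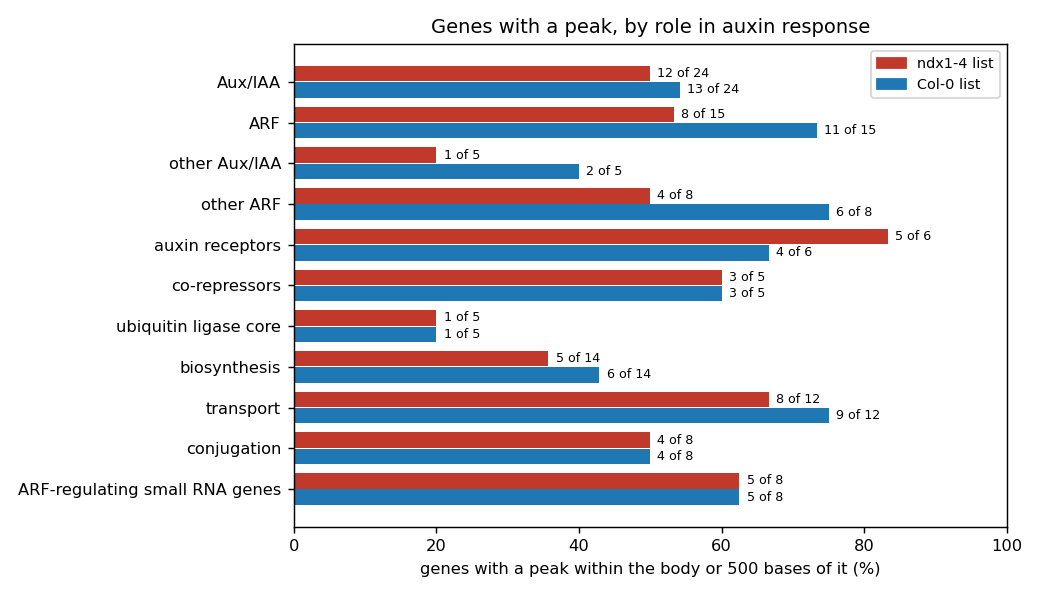
Share of genes with a peak in the body or the 500 bases on each side (%, x axis) for the Aux/IAA and ARF genes and 9 further groups of auxin genes (y axis), with red bars for the ndx1-4 list, blue bars for the Col-0 list, and the counts beside each bar. The ARF genes have 8 of 15 with a peak in ndx1-4 and 11 of 15 in Col-0, and the receptors have 5 of 6 in ndx1-4 and 4 of 6 in Col-0. The receptor counts include AFB1, whose peak lies past the gene end.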

How the data were processed

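The 2 peak lists were used as deposited, 1 per genotype, with start, end and a score per peak. The submitters' processing notes name Bowtie2, SAMtools, Picard, deepTools and MACS2, with no roles or versions. Which of them called the peaks, with which threshold, and how the input, RNase H and IP libraries entered the calls are not given in the sources used here. The score is a whole number the authors deposited with each peak, without a unit, and was used only within a list. All starts were multiples of 20 bases apart, the shortest peak had 200 bases, and depth per library is unknown. A list from deeper libraries can hold more and longer peaks, and depth and genotype cannot be told apart.

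The gene models were those of RefSeq for TAIR10.1, in which nuclear coordinates are the same as in TAIR10. Positions were given from the outermost annotated start. The gene feature was that of the transcript with the longest coding sequence, or the next-longest that spans the base. Peaks of both lists were partners where they shared at least 1 base. Genes, lists and the named-gene rule were chosen with earlier results of these data known: every member was named, with full values for members with a peak in 1 list only, with several peaks, or with 1 of the 5 longest or 5 highest-scoring peaks of a list, and of other pathway genes those with a peak in 1 list only or with several were named. Others, such as IAA31, TAS3 and MIR160A, were named after their values were seen. Members were compared with all genes by description, without tests. Target sites were allowed up to 4 differences. The alternatives were other flanks, score, length, overlap, merging and neighbour rules. The overlap code was tested on simulated lists. Tables were handled with pandas 2.3.3 and numpy 2.4.6, intervals came from scipy 1.17.1 and plots from matplotlib 3.10.9, under Python 3.11.15.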

Additional observations from a re-analysis of the deposited data

How the results depend on the processing

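Of 132 values recomputed for 18 results, 113 stayed near the value given above (counts and covered shares within 1.5 times, the other results inside their Wilson interval) and 19 moved, all under 2 settings. The Wilson intervals were wide, at 0.983 to 4.75 in *ndx1-4* and 0.887 to 3.49 in Col-0 for the ratio of densities. Staying inside them is a loose limit, and the alternatives used the same few peaks. Only peaks of at least 500 bases left 6 Aux/IAA genes with a peak in *ndx1-4* and 5 in Col-0, and 3 ARF genes in *ndx1-4* and 4 in Col-0. Covered shares were then 5.77% in *ndx1-4* and 4.7% in Col-0 for Aux/IAA genes, and 2.17% in *ndx1-4* and 3.67% in Col-0 for ARF genes. Each list then had 1 member with a peak in that list only and 1 member peak without a partner, IAA3 in *ndx1-4* and ARF4 in Col-0. The Col-0 partner of the IAA3 peak has 420 bases and was left out by this setting. The ARF4 peak had no partner in the full lists either. The excess of Col-0-only members was thus not seen, but the *ndx1-4* count came from the length cut. The higher-scoring 50% of each list left 5 ARF genes with a peak in *ndx1-4* and 7 in Col-0, and an ARF covered share of 2.93% in *ndx1-4*. It kept similar counts of Col-0-only members (3) and Col-0 peaks without a partner (5), but for other genes: only ARF4 remained of the 4 members, and IAA2 and ARF9, like further peaks of IAA13 and IAA26, were counted because their *ndx1-4* partner fell outside the higher-scoring 50%. Under both settings 100% of the ARF peaks were centred within 500 bases of the gene start in both lists. Fewer peaks entered both settings by construction. The Aux/IAA to ARF ratio of peaks per kb stayed above 1 under every alternative, at 1.91 to 2.67 in *ndx1-4* and 1.58 to 2.29 in Col-0. The share of Aux/IAA peaks centred near the start stayed at 27.3 to 42.9% in *ndx1-4* and 34.6 to 53.3% in Col-0, always with the limit of 500 bases. No paired analysis was possible because the IP replicate numbers do not appear in the peak lists, of which there is 1 per genotype, and leaving out a replicate was not possible either. Unknown depth limits what a missing low-scoring peak can show.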
